A study of Mus musculus with 4 samples.

Results

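The 42 genes described here encode transcription factors that direct the development of lineages other than macrophages: 16 act mainly in the nervous system, 3 in the neural crest, 8 in the heart and other mesoderm, 7 in endoderm, 3 in kidney or thyroid and 5 in skeleton or muscle. They were chosen as a named list, 42 of the 21887 protein-coding genes of the annotation, and each was assigned every peak that overlapped it or lay within 1000 bp of it. The data were chromatin immunoprecipitation followed by sequencing (ChIP-seq) for trimethylated lysine 4 of histone H3 (H3K4me3) and for trimethylated lysine 9 (H3K9me3). The cells came from the peritoneum of C57BL/6 mice aged 8 weeks, were elicited with thioglycollate broth and were cultured in dishes. The mice were of genotype Sun-/- or wild type, and each of the 4 libraries stands for a different pairing of mark and genotype. Which Sun gene was removed, whether animals were pooled and how many animals gave cells are not in the labels. With no replicate libraries, no test between the genotypes was possible, so the genotypes are compared as individual libraries and all intervals cover counting error only.

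H3K4me3 is found at the start sites of active genes and also, at lower levels, at the CpG-rich promoters of many developmental regulators that are silent. H3K9me3 is a mark of heterochromatin, best known over repeats and over clusters of zinc finger genes. Factors of the Pax, Sox, Nkx, Fox, Lhx and related families bind DNA and set cell identity in the embryo, and most have no known part in macrophages. A peak at such a gene reports a histone mark and not transcription, which was not measured.

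Sequenced tags left after removal of duplicates numbered 26748289 in the Sun-/- and 29681491 in the wild-type H3K4me3 library, and 28586946 and 27727997 in the Sun-/- and wild-type H3K9me3 libraries. Of these tags, 14.0% in Sun-/- and 17.8% in wild type lay in H3K4me3 peaks, against 1.62% and 1.69% in H3K9me3 peaks of Sun-/- and wild type. The H3K4me3 libraries carried peaks at all 10 macrophage marker genes in both genotypes. Of all protein-coding genes, 68.7% in Sun-/- and 70.2% in wild type had an H3K4me3 peak. Of 15 mesothelial and fibroblast markers, 6 in Sun-/- and 9 in wild type had an H3K4me3 peak. Summed tags in their strongest peaks, not scaled to library size, were 1004 in Sun-/- and 1669 in wild type. The largest were at Pdgfra, with 451 tags in Sun-/- and 591 in wild type, and at Wt1, with 207 and 321. Lrrn4, Col1a1 and Krt18 were also marked in both genotypes. Upk3b, Krt8, Col1a2 and Krt19 were marked in wild type alone, and Col3a1 in Sun-/- alone. Msln, Upk1b, Lum, Muc16 and Dcn had no H3K4me3 peak in either genotype. Among markers of other blood cells, H3K4me3 peaks were found at 3 of 7 B cell and 4 of 7 T cell markers in both genotypes. Of neutrophil markers, 2 of 8 in Sun-/- and 1 of 8 in wild type had one. Mast cell and eosinophil markers had 0 of 4 in either, and all these lists lay below the share of all protein-coding genes. Cells of those kinds can express some of the listed factors, and the part of such cells in the peaks below was not tested. Summed tags were lower in Sun-/- at macrophage genes too. They were 2040 in Sun-/- and 2885 in wild type at the macrophage markers. At 20 macrophage transcription factors they were 9287 in Sun-/- and 14134 in wild type. B cell and T cell sums were also lower in Sun-/-, and the neutrophil sum was higher, at 77 against 34. Scaling to library size kept these directions. The lower mesothelial and fibroblast sum was therefore not particular to those markers. Fewer marked cells and less mark per cell cannot be told apart in these data.

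Almost every gene on the list carried H3K4me3. A peak was present at 40 of 42 genes in Sun-/- and at 42 of 42 in wild type, where 68.7% and 70.2% of all protein-coding genes had one in Sun-/- and wild type. Within 1000 bp of the gene start, or of either end where the strand was not at hand, a peak was present at 29 genes in Sun-/- and 33 in wild type. The 40 genes marked in Sun-/- were all marked in wild type too, against 67.3% of all genes marked in both. Pax8, a factor of thyroid and kidney, and Myod1, the master regulator of skeletal muscle, were marked in wild type alone (2.93% of all genes), and no gene was marked in Sun-/- alone (1.43% of all genes) or in neither genotype (28.3% of all genes). Both of those peaks were small: the Pax8 peak at chr2:24473709-24474705 held 51 tags (95% Poisson interval 38.0 to 67.1) and the Myod1 peak at chr7:46378114-46378487 held 19 tags (11.4 to 29.7). The peak lists hold regions past the caller's limit, so a gene without a peak may still have had tags.

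**Figure D1:**
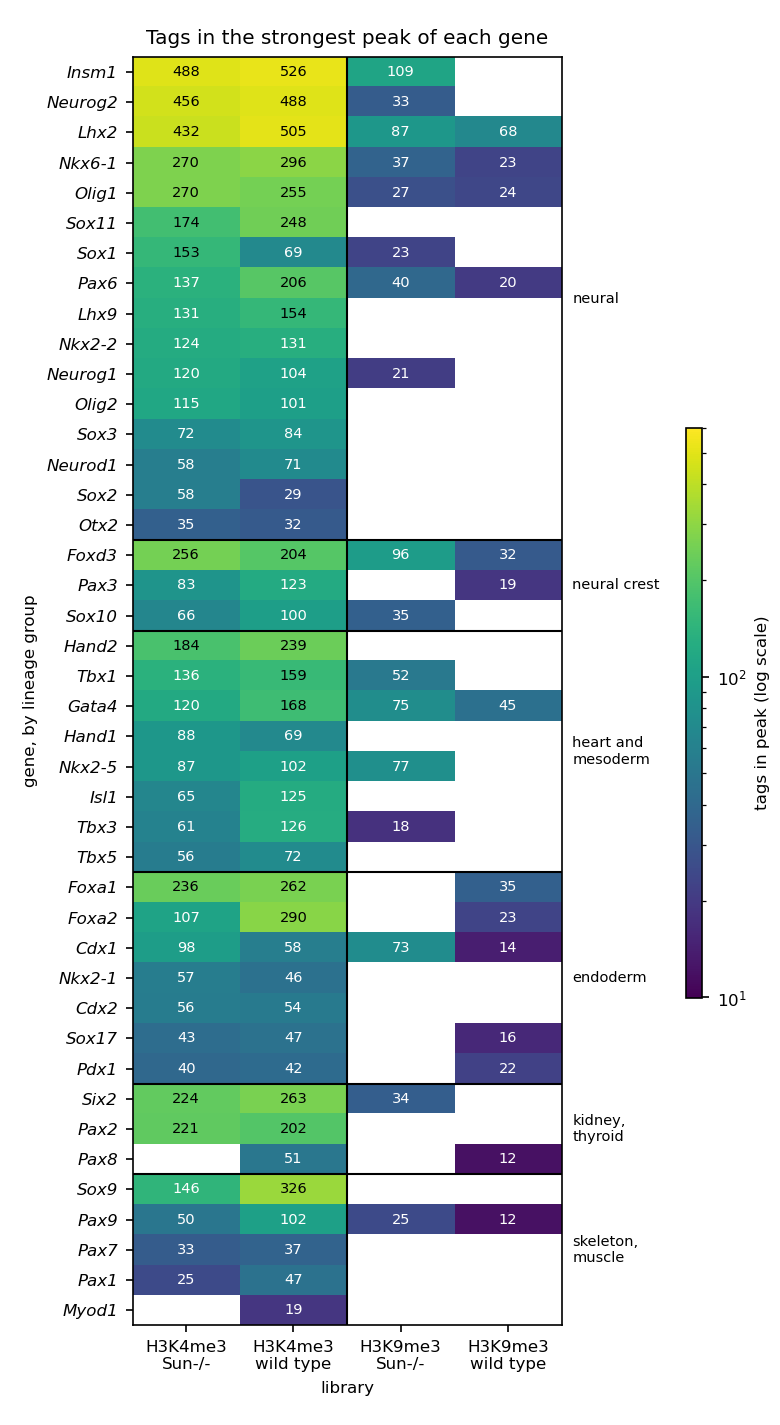
Tags in the strongest peak of each of the 42 genes, with genes down the page by lineage group and the 4 libraries across; colour is the number of tags on a log scale and a white cell means no peak. H3K4me3 fills 40 cells in Sun-/- and 42 in wild type, with 25 to 488 tags in Sun-/- and 19 to 526 in wild type, whereas H3K9me3 fills 17 cells in Sun-/- and 14 in wild type.

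The H3K4me3 peaks of these genes were of lower density than those of most genes. The strongest peak of each marked gene had a median of 70.2 tags per kb in Sun-/- and 80.3 in wild type, against 118 and 150 in Sun-/- and wild type for all marked protein-coding genes. A list of 20 macrophage transcription factors, such as Spi1 and Cebpa, had medians of 146 tags per kb in Sun-/- and 188 in wild type. The 71 other genes of the same families lay between, at 97.4 tags per kb in Sun-/- and 126 in wild type, and 59 of the 71 in Sun-/- and 60 in wild type were marked. The authors' fold enrichment over local background gave the same order between the developmental factors and the whole lists, with medians over all peaks of the list of 5.19 in Sun-/- and 5.48 in wild type, against 7.03 and 7.26 over all peaks in Sun-/- and wild type. Against the macrophage factors the fold enrichment did not keep that order: in their strongest peaks the developmental factors had medians of 5.195 in Sun-/- and 5.48 in wild type, and the macrophage factors 5.46 in Sun-/- and 5.255 in wild type. All 20 macrophage factors were marked in both genotypes. The 10 macrophage marker genes had medians of 78.0 tags per kb in Sun-/- and 105 in wild type, also below those of all marked genes. Their fold enrichment had medians of 4.73 in Sun-/- and 5.68 in wild type. Low density was therefore not particular to the developmental factors. Median gene length was 6950.5 bp for the list and 17169 bp for all protein-coding genes.

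**Figure D2:**
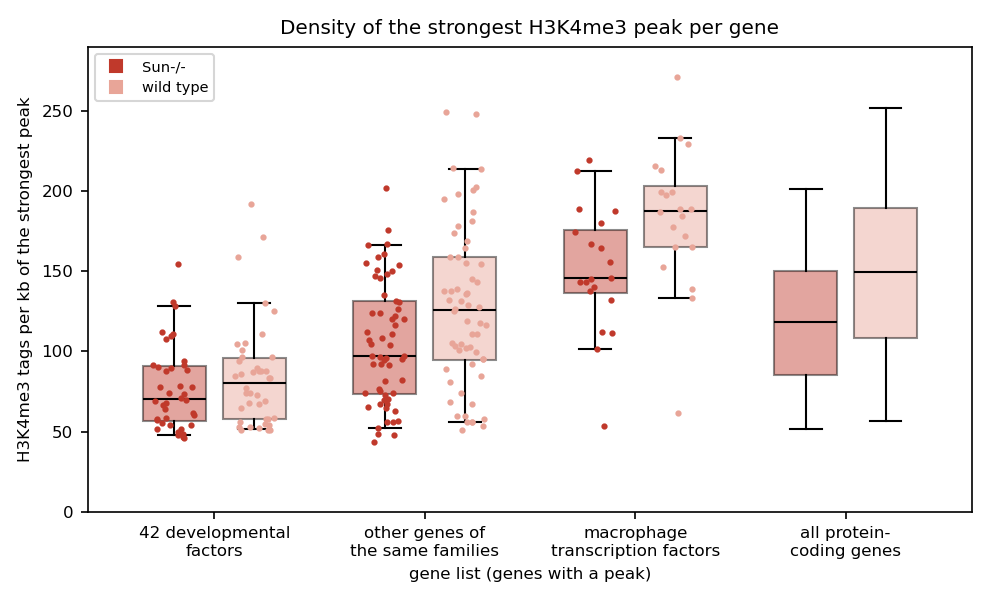
H3K4me3 tags per kb of the strongest peak of each marked gene in 4 gene lists, Sun-/- left of wild type in each pair. Boxes span the quartiles with the median as a line, whiskers the 5th to 95th percentile, and points are genes (not drawn for all genes); the developmental factors have medians of 70.2 in Sun-/- and 80.3 in wild type, the lowest of the 4 lists.

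Among the neural factors, the strongest H3K4me3 peaks lay at 3 genes. Insm1, a zinc finger factor of neuronal and endocrine progenitors, had a peak of 488 tags in Sun-/- (chr2:146220422-146224157) and 526 in wild type. Neurog2, a proneural basic helix-loop-helix factor, had 456 tags in Sun-/- and 488 in wild type. Lhx2, a LIM homeobox factor of forebrain and eye, had 432 tags in Sun-/- and 505 in wild type in a peak inside the gene, and 377 in Sun-/- and 339 in wild type over its upstream start. These 3 genes stood clear of the others in both libraries. The densest of these peaks were at Lhx2, with 166 tags per kb in Sun-/- and 183 in wild type over the upstream start, and 155 in Sun-/- and 192 in wild type inside the gene. Nkx6-1, a factor of ventral neural tube and pancreas, held 270 tags in Sun-/- and 296 in wild type. Olig1, an oligodendrocyte factor, held 270 in Sun-/- and 255 in wild type. Sox11, active in differentiating neurons, held 174 tags in Sun-/- and 248 in wild type.

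The other neural genes were weaker, with strongest peaks of 35 to 153 tags in Sun-/- and 29 to 206 in wild type. Sox1, Sox2 and Sox3 encode related factors of neural progenitors. Sox1 had 1 peak of 153 tags in Sun-/-, where wild type had separate peaks of 69 and 57 tags. Sox2 had peaks of 55 and 58 tags in Sun-/- against 29 in wild type, and Sox3 had 72 tags in Sun-/- against 84 in wild type. Lhx9, with 4 peaks in Sun-/- and 5 in wild type, reached 131 tags in Sun-/- and 154 in wild type, and Nkx2-2, a factor of ventral neural tube, reached 124 in Sun-/- and 131 in wild type. Neurod1, which drives neuronal differentiation, held 58 tags in Sun-/- and 71 in wild type. Pax6, which patterns eye and brain, had 3 peaks in Sun-/- and 4 in wild type. Its strongest Sun-/- peak, of 137 tags, overlapped wild-type peaks of 206 and 166 tags, of which the first was the strongest in wild type. Otx2, a forebrain and midbrain factor, was the weakest neural gene in Sun-/- with 35 tags, close to the 32 tags of wild type, but its peak lay at chr14:48665725-48666450 in Sun-/- and at chr14:48664738-48665282 in wild type. Otx2 was the only one of the 40 genes marked in both genotypes whose peaks did not overlap between them; at the other 39 at least 1 pair overlapped. Of all 14731 genes marked in both genotypes, 0.774% had no overlap between them.

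In the neural crest group, Foxd3, a forkhead factor of premigratory crest, held 256 tags in Sun-/- and 204 in wild type. Sox10, a factor of glia and melanocytes, held 66 tags in Sun-/- and 100 in wild type, and Pax3, a factor of crest and muscle precursors, held 83 in Sun-/- and 123 in wild type. The heart and mesoderm group was marked at 8 of 8 genes in both genotypes. Hand2, a basic helix-loop-helix factor of heart and limb, held 184 tags in Sun-/- and 239 in wild type, and Isl1, a factor of cardiac progenitors and motor neurons, held 65 in Sun-/- and 125 in wild type. The remaining heart and mesoderm genes Tbx1, Hand1, Nkx2-5, Tbx3 and Tbx5 ranged from 56 to 136 tags in Sun-/- and from 69 to 159 in wild type, with Tbx1 the highest and Tbx5 the lowest in Sun-/-. The zinc finger factor Gata4 had 3 peaks in each genotype, of 71 to 120 tags in Sun-/- and 87 to 168 in wild type. These counts are not scaled to library size: scaled to filtered tags, 18 of the 40 genes marked in both genotypes had more tags in Sun-/- and 22 had fewer.

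Among endodermal genes, Foxa1 and Foxa2, the pioneer factors of gut and liver, held 236 and 107 tags in Sun-/- against 262 and 290 in wild type. At Foxa2 the wild-type peak spanned 3336 bp where Sun-/- had separate peaks of 89 and 107 tags. Cdx1, an intestinal homeobox factor, held 98 tags in Sun-/- against 58 in wild type, in peaks at the same place. Pdx1, the pancreatic homeobox factor, had a shared site inside the gene with 40 tags in Sun-/- against 30 in wild type, and its strongest wild-type peak, of 42 tags at the gene start, had no Sun-/- peak over it. Nkx2-1, the lung and thyroid factor, held 57 tags in Sun-/- and 46 in wild type. Cdx2, the intestinal relative of Cdx1, had a shared site outside the gene with 46 tags in Sun-/- and 54 in wild type, and its strongest Sun-/- peak, of 56 tags at the gene start, had no wild-type peak over it. In the kidney group, the nephron progenitor factor Six2 held 224 tags in Sun-/- and 263 in wild type, and Pax2, of the same tissue, held 221 in Sun-/- and 202 in wild type. Sox9, the cartilage factor, held 146 tags in Sun-/- and 326 in wild type, in peaks of 1353 bp in Sun-/- and 3369 bp in wild type. Density differed less at Sox9, at 108 tags per kb in Sun-/- and 96.8 in wild type. The sclerotome factor Pax1 and the muscle stem cell factor Pax7 were weak, with 25 and 33 tags in Sun-/- against 47 and 37 in wild type.

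Of the H3K4me3 peaks assigned to the list, 19 of 64 in Sun-/- and 22 of 70 in wild type were also assigned to another annotated gene. Such peaks overlapped the other gene or lay within 1000 bp of it, as with the noncoding neighbours Sox2ot and Hand2os1. The marks of such pairs of genes cannot be told apart, and the share over all peaks was not computed.

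Peaks did not always cover the start of the gene. A promoter window of 300 bases, 250 before and 50 after a start, was at hand for 29 of the 42 genes (39 windows), from RefSeq on GRCm38.p6, the assembly behind mm10. An H3K4me3 peak covered part of such a window at 19 of 29 genes in Sun-/- and 22 of 29 in wild type, or 65.5% and 75.9% in Sun-/- and wild type, against 60.1% and 62.7% of all genes with a window. The median distance from peak summit to the nearest start, over genes with a peak, was 986.5 bp in Sun-/- and 544 bp in wild type, against 300 and 285 bp for all genes in Sun-/- and wild type. Nkx2-1, Nkx2-2, Olig2, Pax7 and Pax8 had no peak over a window in either genotype. The windows leave out the outermost 5′ end of some genes, so some of these distances run to a start further inside. The Nkx2-2 gene has its 5′ end at 147195434, near its Sun-/- peak at chr2:147193803-147195391, and had no window there. At Lhx9 the Sun-/- peak at chr1:138847845-138849327 covered the 5′ end at 138848839, which also had no window. At Pax7 the summit lay 11155 bp from the start in Sun-/- and 11221 bp in wild type. At Olig2, an oligodendrocyte and motor neuron factor, peaks of 115 tags in Sun-/- and 101 in wild type began inside the gene, 654 and 653 bp downstream of its left end in Sun-/- and wild type.

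**Figure D3:**
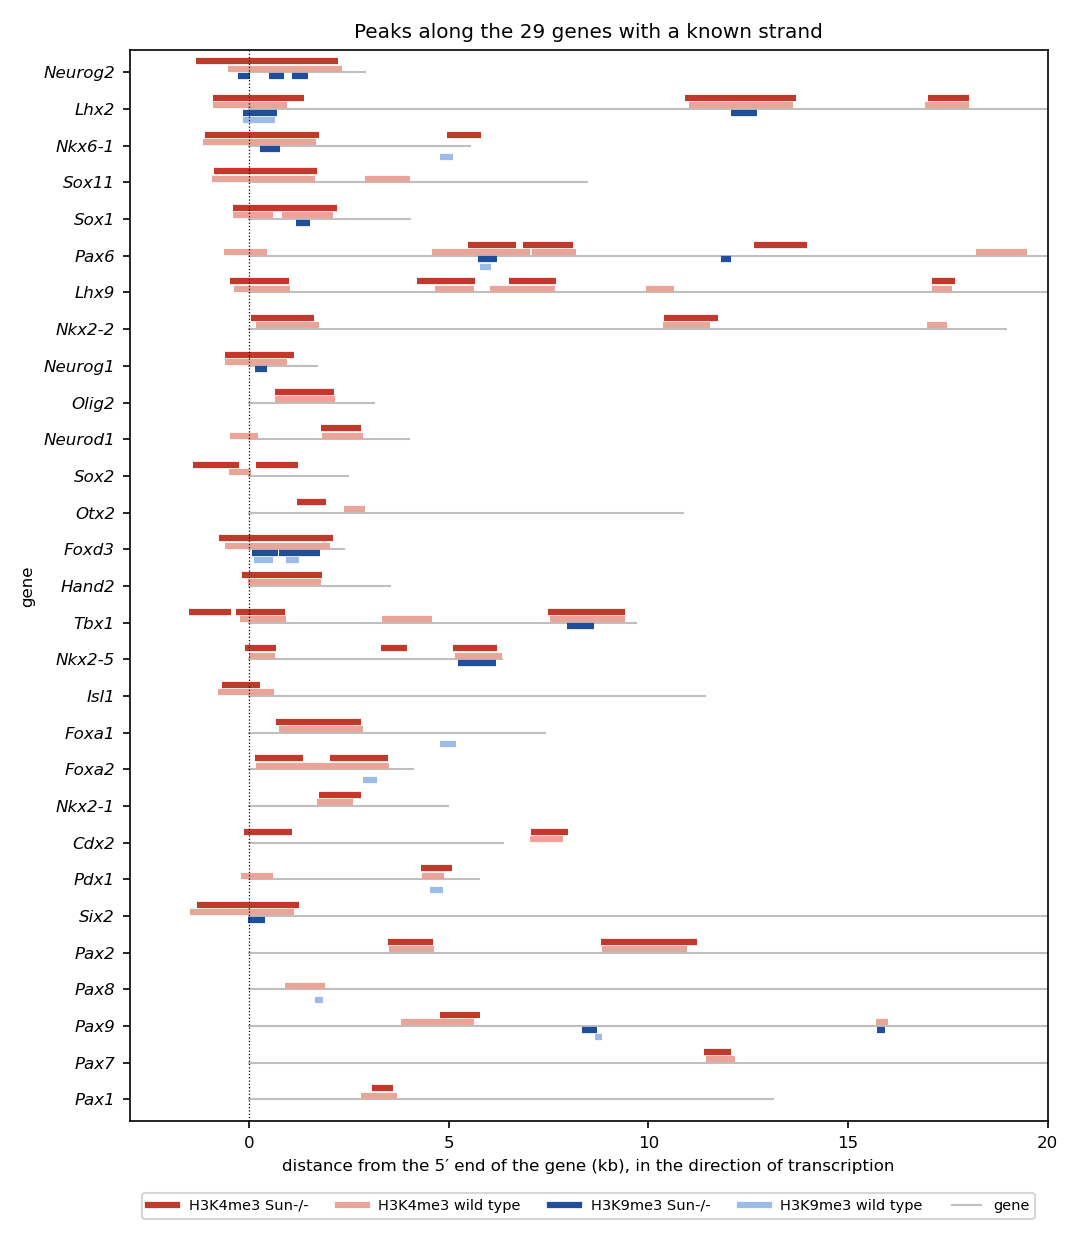
Peaks along the 29 genes with a known strand, as distance in kb from the 5′ end of the gene in the direction of transcription; bars are peaks of the 4 libraries, Sun-/- above wild type for each mark, and grey lines are genes. H3K4me3 peaks of Sun-/- and wild type lie over the same stretch at most genes, while Otx2 has peaks at separate places and the Pax7 peaks lie 11 kb inside the gene; 4 of 125 peaks fall beyond the 20 kb drawn.

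The windows differed in their number of CG dinucleotides, and 7 are shown here because they range from covered by both marks to covered by none. Capitals mark each CG dinucleotide, and letters read 5′ to 3′ on the strand of the gene. The Lhx2 window (chr2:38339031-38339330, plus strand) lay under peaks of both marks in both genotypes, and the Six2 window (chr17:85688205-85688504, minus strand) under H3K4me3 in both and under H3K9me3 in Sun-/-. The Nkx6-1 window (chr5:101664662-101664961, minus strand) and the Sox2 window (chr3:34649745-34650044, plus strand) lay under H3K4me3 in both genotypes, the Sox2 window in Sun-/- by its outer edge alone. No peak covered the windows of Olig2 (chr16:91225300-91225599, plus strand), Pax7 (chr4:139832919-139833218, minus strand) and Pax8 (chr2:24475550-24475849, minus strand).
Lhx2: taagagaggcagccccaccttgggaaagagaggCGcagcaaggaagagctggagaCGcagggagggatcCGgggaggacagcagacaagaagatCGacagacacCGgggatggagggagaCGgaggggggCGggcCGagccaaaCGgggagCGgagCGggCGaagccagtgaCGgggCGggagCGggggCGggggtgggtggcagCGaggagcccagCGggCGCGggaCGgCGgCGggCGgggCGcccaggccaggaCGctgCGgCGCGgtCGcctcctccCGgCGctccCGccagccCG
Six2: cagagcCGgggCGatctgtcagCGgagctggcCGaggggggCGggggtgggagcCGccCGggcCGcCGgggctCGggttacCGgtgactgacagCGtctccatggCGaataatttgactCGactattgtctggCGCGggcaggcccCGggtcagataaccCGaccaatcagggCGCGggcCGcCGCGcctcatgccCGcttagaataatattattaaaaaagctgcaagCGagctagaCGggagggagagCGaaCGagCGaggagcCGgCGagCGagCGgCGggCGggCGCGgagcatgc
Nkx6-1: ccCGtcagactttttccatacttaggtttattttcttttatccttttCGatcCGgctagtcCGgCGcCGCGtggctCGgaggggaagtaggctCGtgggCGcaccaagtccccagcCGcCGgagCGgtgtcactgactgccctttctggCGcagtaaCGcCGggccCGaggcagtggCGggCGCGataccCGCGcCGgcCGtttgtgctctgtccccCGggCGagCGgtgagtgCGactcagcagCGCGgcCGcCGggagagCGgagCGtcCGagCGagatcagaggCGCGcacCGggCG
Sox2: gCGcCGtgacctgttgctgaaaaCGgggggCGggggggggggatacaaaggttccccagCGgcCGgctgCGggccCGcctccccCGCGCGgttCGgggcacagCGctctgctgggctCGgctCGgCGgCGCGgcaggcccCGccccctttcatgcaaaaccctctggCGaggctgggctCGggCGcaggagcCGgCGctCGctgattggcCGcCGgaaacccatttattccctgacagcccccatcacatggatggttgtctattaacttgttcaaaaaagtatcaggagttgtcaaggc
Olig2: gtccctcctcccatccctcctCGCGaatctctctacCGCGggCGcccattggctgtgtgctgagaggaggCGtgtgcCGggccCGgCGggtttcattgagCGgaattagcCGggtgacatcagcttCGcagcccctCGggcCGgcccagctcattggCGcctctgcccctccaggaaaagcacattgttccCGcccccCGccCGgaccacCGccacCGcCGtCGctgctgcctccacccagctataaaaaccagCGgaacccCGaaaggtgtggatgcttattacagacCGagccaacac
Pax7: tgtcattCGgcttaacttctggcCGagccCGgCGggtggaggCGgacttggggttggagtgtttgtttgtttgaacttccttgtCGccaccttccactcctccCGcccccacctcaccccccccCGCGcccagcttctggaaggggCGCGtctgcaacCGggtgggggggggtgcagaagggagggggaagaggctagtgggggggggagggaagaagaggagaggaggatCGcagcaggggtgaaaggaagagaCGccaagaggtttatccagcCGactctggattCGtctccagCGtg
Pax8: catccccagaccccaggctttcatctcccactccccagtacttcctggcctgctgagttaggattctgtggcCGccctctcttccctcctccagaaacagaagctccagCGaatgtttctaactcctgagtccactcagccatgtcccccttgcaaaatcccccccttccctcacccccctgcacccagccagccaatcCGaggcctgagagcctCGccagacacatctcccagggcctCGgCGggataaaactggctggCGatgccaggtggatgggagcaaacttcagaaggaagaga

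These windows hold 34 CG dinucleotides at Lhx2, 37 at Six2, 40 at Nkx6-1, 27 at Sox2, 25 at Olig2, 17 at Pax7 and 7 at Pax8. Over the 39 windows of the list the median was 17, against 13 over all 21263 windows. The 19 windows under H3K4me3 in both genotypes had a median of 26 (range 10 to 40), and the 11 windows under it in neither had a median of 12 (range 6 to 26), so the groups overlapped. The 11 windows belonged to 9 genes, some with several starts. At Foxa2, Otx2, Pax2 and Tbx1 another window was covered in at least 1 genotype. All 7 windows with 30 or more CG dinucleotides were covered in both genotypes, where 98.2% and 99.1% of all such windows were covered in Sun-/- and wild type. Of the 10 windows with 20 to 29, 7 were covered in Sun-/- and 8 in wild type, against 93.7% and 96.2% of all such windows in Sun-/- and wild type. Of the 16 windows with 10 to 19, 7 were covered in Sun-/- and 9 in wild type, where 80.3% and 84.9% of all windows in that range were covered in Sun-/- and wild type. With 5 to 9 the list had 6 windows, of which 1 was covered in each genotype, against 33.7% and 38.9% of all such windows in Sun-/- and wild type. The windows of 13 genes (Pax3, Sox3, Sox9, Sox10, Sox17, Insm1, Olig1, Gata4, Hand1, Tbx3, Tbx5, Cdx1 and Myod1) were not analysed here.

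**Figure D4:**
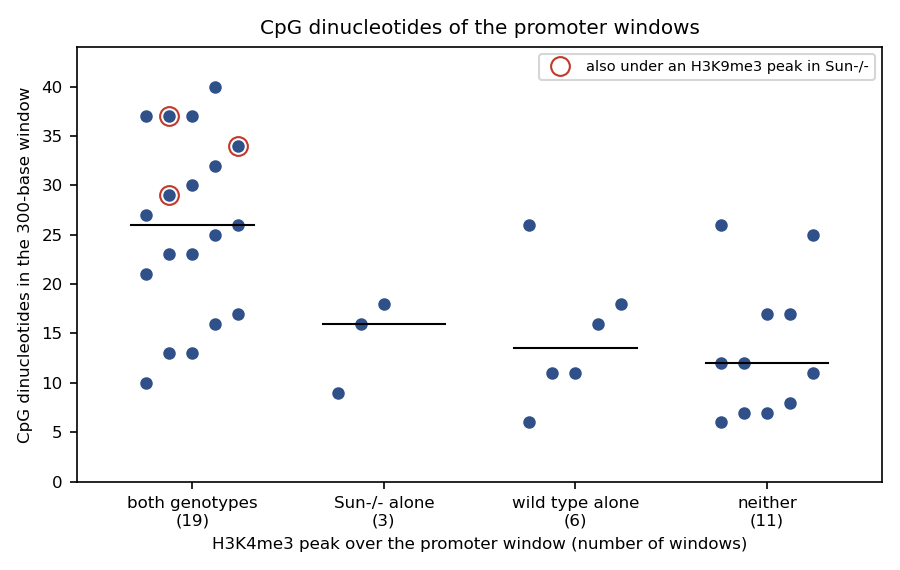
Number of CG dinucleotides in each of the 39 promoter windows of 300 bases, grouped by whether an H3K4me3 peak covered the window in both genotypes (19), in Sun-/- alone (3), in wild type alone (6) or in neither (11). Lines are medians, 26 for both genotypes and 12 for neither, and rings mark windows that an H3K9me3 peak also covered in Sun-/-.

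Short motifs were searched on both strands of each window. The GC box GGGCGG, bound by Sp1 and related factors, was present in 22 of 39 windows (56.4%), against 46.2% of all windows. The TATA sequence TATAAA was present in 3 (7.69%), against 12.6% of all windows. The macrophage factor PU.1 binds purine-rich sites such as GAGGAAGT, which was present in 1 window (2.56%), against 3.13% of all windows. No motif contains another.

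Tag densities were compared where a Sun-/- and a wild-type peak shared at least 50% of the length of each and neither touched a further peak of the other list. For H3K4me3, 42 such pairs with at least 50 tags in 1 library were found at 29 of the genes, among 17114 pairs in all. Ratios are log2 of Sun-/- over wild-type tags per kb, centred on the median of all pairs. No pair of the list differed by 2-fold or more in density, where 0.0409% of all pairs were at least that much denser in Sun-/- and 0.0117% less dense. As tags per peak, 1 of the 42 pairs passed 2-fold, Cdx1 at 1.24, as did 276 of all 17114 pairs. The 42 ratios had a median of 0.16 (range -0.23 to 0.77), and 32 were above 0, but scaled to library tags in place of the median pair the median was -0.034 and 19 were above 0. That scaling places the median of all pairs at -0.19.

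The pairs with the highest ratios were at Cdx1, Pax2, Lhx2, Pax3 and Foxd3. At Cdx1 the ratio was 0.77 (95% interval 0.29 to 1.26), from 73.1 tags per kb in Sun-/- and 54.3 in wild type. At Pax2 the pair near the 3′ end had 166 tags in Sun-/- and 148 in wild type and a ratio of 0.63 (0.31 to 0.96). This Pax2 pair also lay in or within 1000 bp of 1700039E22Rik. A Lhx2 pair inside the gene had 107 tags in Sun-/- and 95 in wild type, with a ratio of 0.60 (0.19 to 1.02), whereas the strongest Lhx2 pair was at 0.026 (-0.16 to 0.21). Pax3 followed at 0.56 (0.024 to 1.08) and Foxd3 at 0.55 (0.28 to 0.82). The lowest ratios were those of Hand1, a factor of heart and placenta, at -0.23 (-0.71 to 0.24), then Sox11 at -0.17 (-0.46 to 0.12), Hand2 at -0.16, Lhx9 at -0.13, and Sox3 at -0.078. Lhx9 is counted here with the neural genes but is also a homeobox factor of gonad and limb. Compared as tags per peak, without division by width, Hand1 was at 0.83 and this Lhx9 pair at 0.58, so their direction turned; the Hand1 peak was 1466 bp wide in Sun-/- and 772 bp in wild type. On that scale Sox3 was at 0.26 and Hand2 at 0.10, above 0 as well, and Sox11 was at -0.033. Of the 42 intervals, 9 lay above 0 and 0 below it, against 8.73% and 7.26% of all pairs above and below 0. Scaled to library tags, 4 lay above 0, at Cdx1, Pax2, Lhx2 and Foxd3, and 3 below, at Neurog2, Hand2 and Sox11, against 1.79% and 29.4% of all pairs above and below 0.

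The ratio moved with density over all pairs as well. Among pairs under 75 tags per kb, the median was 0.12 over all pairs and 0.27 over 15 pairs of the list. From 75 to 100 tags per kb the medians were -0.0076 over all pairs and 0.16 over 20 pairs of the list. From 100 to 150 tags per kb they were -0.036 over all pairs and 0.11 over 4 pairs of the list. At 150 tags per kb or more they were -0.025 over all pairs and 0.026 over 3 pairs of the list. The part of density in the ratios of the list was not tested further.

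**Figure D5:**
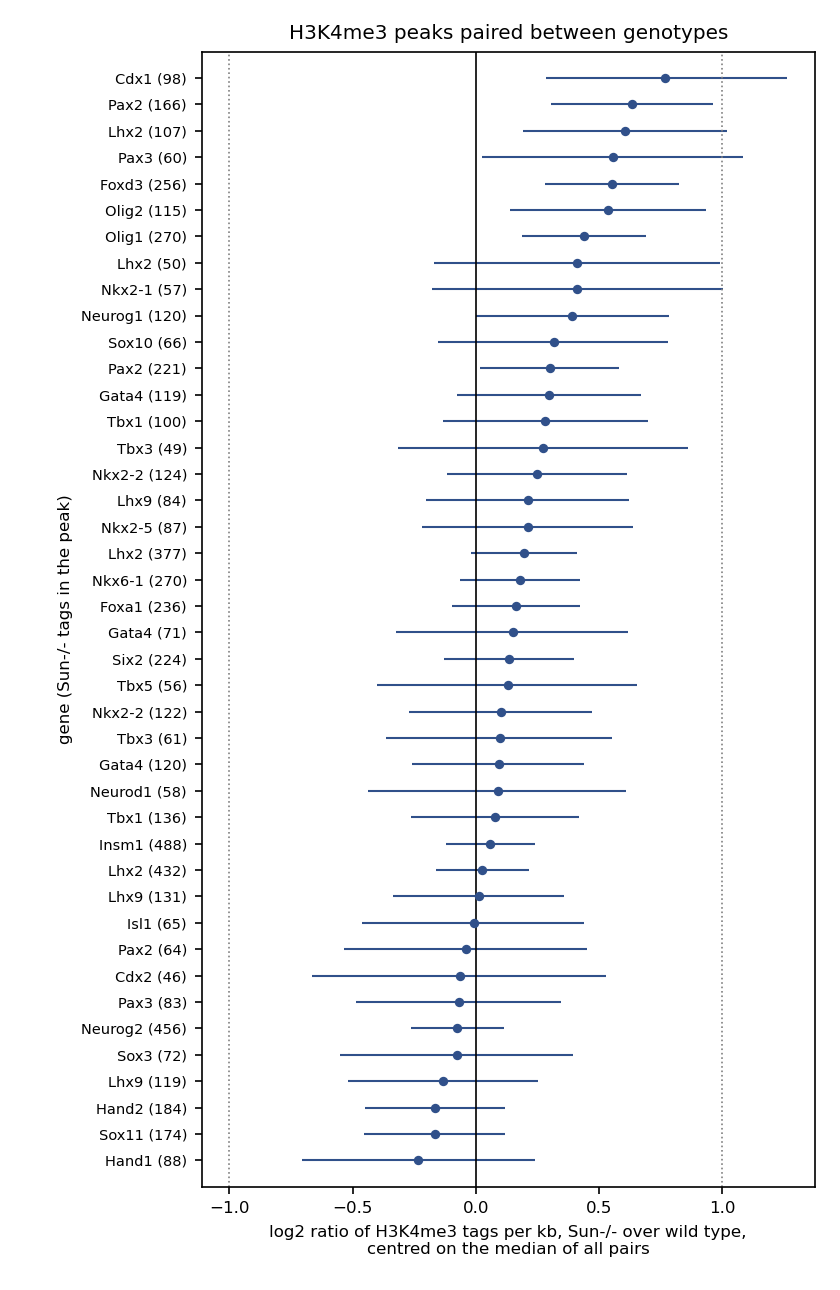
Log2 ratio of H3K4me3 tags per kb, Sun-/- over wild type, of the 42 paired peaks, centred on the median of all pairs; points are pairs, bars exact 95% counting intervals, numbers in brackets Sun-/- tags, and dotted lines 2-fold. Ratios run from -0.23 at Hand1 to 0.77 at Cdx1, and none passes 2-fold.

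H3K9me3 was present at fewer of the genes than H3K4me3, and at partly different genes in the Sun-/- and wild-type libraries. Peaks were found at 17 of 42 genes in Sun-/- and 14 of 42 in wild type, against 28.1% and 25.6% of all protein-coding genes in Sun-/- and wild type. They were present in both genotypes at 8 genes (16.9% of all genes), in Sun-/- alone at 9 (11.2%), in wild type alone at 6 (8.74%), and in neither at 19 (63.2%). The macrophage factors had H3K9me3 at 11 of 20 genes in Sun-/- and 13 of 20 in wild type, and the other genes of the same families at 27 of 71 in Sun-/- and 25 of 71 in wild type. The H3K9me3 peaks of the list had fewer tags than its H3K4me3 peaks, with 1116 tags over 13683 bp in 25 peaks in Sun-/- and 433 tags over 5887 bp in 17 peaks in wild type. Against H3K9me3 peaks in general they were larger, with a median of 34 tags in Sun-/- and 22 in wild type, where all H3K9me3 peaks had medians of 17 and 16 in Sun-/- and wild type. The mean density was 81.6 tags per kb in Sun-/- and 73.6 in wild type, so the larger sum in Sun-/- went with a longer covered length. Over the whole genome, 35.8% of Sun-/- and 32.5% of wild-type H3K9me3 peaks overlapped a peak of the other genotype, against 80.2% and 71.9% of the H3K4me3 peaks of Sun-/- and wild type.

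The 8 genes with H3K9me3 in both genotypes were Pax6, Pax9, Olig1, Nkx6-1, Foxd3, Gata4, Lhx2 and Cdx1. At 6 of them peaks overlapped between genotypes, and at Nkx6-1 and Cdx1 they did not; of all 3696 genes with H3K9me3 in both, 25.1% had no overlap. Foxd3 had peaks of 53 and 96 tags in Sun-/- and of 32 and 26 in wild type, all inside its short gene. Lhx2 had peaks of 87 and 57 tags in Sun-/- and 1 peak of 68 in wild type, and the shared peak began at 38339123 in Sun-/- and 38339124 in wild type on chromosome 2, over the upstream start. Gata4 had peaks of 75 and 25 tags in Sun-/- against 45, 20 and 22 in wild type. These 3 genes gave the only H3K9me3 pairs, with ratios of 0.37 (-0.18 to 0.94) at Gata4, 0.21 (-0.26 to 0.69) at Lhx2 and 0.19 (-0.47 to 0.87) at Foxd3, each interval including 0, where 3.25% and 3.75% of all H3K9me3 pairs had intervals above and below 0. As tags per peak, the intervals of Foxd3 and Gata4 lay above 0, where 17.1% and 12.5% of all H3K9me3 pairs lay above and below 0. None of the 3 pairs of the list passed 2-fold in density, where 0 and 0.125% of 799 pairs were that much denser and less dense in Sun-/-. At Pax6 the shared site held 40 tags in Sun-/- and 20 in wild type, at Olig1 27 in Sun-/- and 24 in wild type, and at Pax9, the sclerotome and tooth factor, 25 in Sun-/- and 12 in wild type. Cdx1 had 73 tags near its right end in Sun-/- and 14 tags inside the gene in wild type, and Nkx6-1 had 37 in Sun-/- and 23 in wild type at separate places.

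Among the 9 genes marked in Sun-/- alone, Insm1 stood out with 109 tags (95% Poisson interval 89.5 to 131) at chr2:146222554-146223860, the largest H3K9me3 peak of the list. Nkx2-5, the cardiac homeobox factor, had 77 tags (60.8 to 96.2), and Tbx1, the T-box factor of the pharyngeal arches, had 52. Neurog2 had 3 peaks of 22, 27 and 33 tags, and Sox10 had 2 of 32 and 35. Six2 had 34 tags, Sox1 had 23 and Neurog1, a proneural factor of sensory ganglia, had 21. Tbx3, a T-box factor of limb and heart conduction tissue, had 18 tags in a peak 934 bp from the gene. All 9 genes lacked a peak in the wild-type list.

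The 6 genes marked in wild type alone had smaller peaks, of 12 to 35 tags. Foxa1 had 35 tags, Foxa2 had 23, Pdx1 had 22, Pax3 had 19, Sox17, an endoderm and endothelial factor, had 16, and Pax8 had 12. Foxa1, Foxa2, Pdx1 and Sox17 belong to the endoderm group, which had H3K9me3 at 1 of 7 genes in Sun-/- and 5 of 7 in wild type. Such numbers were 2 of 3 in Sun-/- and 2 of 3 in wild type for the neural crest group, 1 of 3 in each for kidney and thyroid, and 1 of 5 in each for skeleton and muscle. The neural group had it at 8 of 16 genes in Sun-/- and 4 of 16 in wild type, and the heart group at 4 of 8 in Sun-/- and 1 of 8 in wild type. The share of all protein-coding genes was 28.1% in Sun-/- and 25.6% in wild type. With a score of at least 100, 0 genes of the list had H3K9me3 in wild type alone, so the endoderm counts rest on small peaks. Nearest inside the 1000 bp limit was the Tbx3 peak, and just outside it were H3K4me3 peaks 1057 bp from Foxa1 in Sun-/- (87 tags) and 1049 bp in wild type (112 tags), and an H3K9me3 peak of 14 tags 1476 bp from Otx2 in wild type, which were not counted.

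Since all 42 genes carried H3K4me3 in wild type, every gene with H3K9me3 there had both marks by necessity. In Sun-/- the 17 genes with H3K9me3 were all among the 40 with H3K4me3. Both marks were present at 17 genes in Sun-/- and 14 in wild type, against 25.9% and 23.2% of all genes in Sun-/- and wild type, and at 8 genes in both genotypes (15.6%). They were found together in Sun-/- alone at 9 genes (10.3%) and in wild type alone at 6 (7.65%). H3K4me3 without H3K9me3 was the state of 23 genes in Sun-/- and 28 in wild type, against 42.9% and 47.0% of all genes in Sun-/- and wild type, and neither mark was found at 2 genes in Sun-/- and 0 in wild type, against 29.1% and 27.4% of all genes. H3K9me3 without H3K4me3 was found at 0 genes in either, against 2.21% of all genes in Sun-/- and 2.40% in wild type. The marks also lay on the same stretch at most of these genes. Peaks of the marks overlapped each other at 15 of the 17 genes with both marks in Sun-/- and 9 of the 14 in wild type. Among all protein-coding genes with both marks, 4035 of 5665 in Sun-/- and 3124 of 5082 in wild type had it, so such overlap was usual. Over all genes, with or without the marks, the shares were 18.4% in Sun-/- and 14.3% in wild type. Foxd3, Gata4, Lhx2, Olig1 and Pax6 had such overlap in both genotypes. Of the H3K9me3 peaks on the list, 21 of 25 in Sun-/- (84.0%, exact 95% interval 63.9 to 95.5) and 11 of 17 in wild type (64.7%, 38.3 to 85.8) overlapped an H3K4me3 peak. At all protein-coding genes the shares were 50.8% in Sun-/- and 39.7% in wild type.

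Strong H3K4me3 peaks were those most often overlapped by H3K9me3. Of H3K4me3 peaks of 400 or more tags at protein-coding genes, 51.3% in Sun-/- and 38.0% in wild type overlapped H3K9me3, against 10.6% and 6.86% of those under 50 tags in Sun-/- and wild type. On the list, 3 peaks reached 400 tags in each genotype, at Insm1, Neurog2 and the intragenic Lhx2 site. All 3 overlapped an H3K9me3 peak in Sun-/- and 0 did in wild type. From 200 to under 400 tags, 5 of 7 peaks in Sun-/- and 5 of 12 in wild type overlapped, where the shares over all such peaks were 34.3% and 15.5% in Sun-/- and wild type. No library without antibody enrichment was among those analysed, so the level of unenriched chromatin at these sites was not measured, and its part in the shared peaks was not tested.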

How the data were processed

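ChIP-seq peak lists for H3K4me3 and H3K9me3 were analysed from 4 libraries, 1 for each mark in Sun-/- and wild-type macrophages. Per the submitters' processing notes, the tools were CASAVA 1.4, Bowtie 0.12.8, MACS 1.4.2 and DiffBind, with the build mm10; for the aligner's settings, nothing is given in the sources used here. Per the file headers, MACS took each library alone, with no control; its p-value limit was 1e-05, its genome size 1.87e+09, its band width 300 bp, its maximum 1 duplicate tag per position and its local background range 10000 bp. For each peak the authors deposited the tag count (unscaled), a score that is 10 times the −log10 of the p-value, and the fold enrichment over local background, a ratio. Without a control library, the background of a peak comes from its own surroundings in the same library. Peak position, width and summit were used as deposited.

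Peaks were assigned to genes of the RefSeq annotation of GRCm38.p6 by an overlap of at least 1 bp with the gene or the 1000 bp on either side. A Sun-/- and a wild-type peak were paired where the overlap took at least 50% of each and neither overlapped a further peak of the other genotype, with at least 50 tags in 1 library. The log2 ratio of tags per kb was centred on the median pair, with an exact conditional binomial 95% interval. Intervals of tag counts are exact Poisson and those of shares Clopper-Pearson, and all cover counting error only. The size rule was 2-fold, since 1 library per mark and genotype allows no test. Pairing and ratios were tested on simulated data. All 42 genes were counted. Given with their values were those with a peak in 1 genotype alone or with H3K9me3, the 10 with the most H3K4me3 tags in Sun-/- and the 5 highest and lowest ratios, and some others were added to describe each lineage group after their values were seen. Of 5 mast cell and eosinophil markers, 4 matched the annotation. The genes and marker lists were chosen with earlier results of these data known. The targeted gene could not be checked, since the labels do not name it. Intervals came from scipy 1.17.1, tables from pandas 2.3.3 and numpy 2.4.6 under Python 3.11.15, and figures from matplotlib 3.10.9.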

Additional observations from a re-analysis of the deposited data

How the results depend on the processing

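No paired analysis was possible because each mark had 1 library per genotype and the labels give no replicate numbers. Of 125 values recomputed under other settings for the counts and medians, 88 stayed within the set limits and 37 moved. With a score of at least 100, H3K4me3 was found in both genotypes at 26 genes, in Sun-/- alone at 3 and in wild type alone at 5, and H3K9me3 at 7 genes in Sun-/- and 2 in wild type, 2 in both, 5 in Sun-/- alone and 0 in wild type alone; both marks stood at 7 in Sun-/-, 2 in wild type and 2 in both. Counting peaks within 1000 bp of the gene start (either end where the strand was not at hand), H3K4me3 stood at 29 genes in Sun-/- and 33 in wild type. It stood at 28 genes in both, 1 in Sun-/- alone and 5 in wild type alone. H3K9me3 then stood at 11 genes in Sun-/-, 4 in wild type, 3 in both and 1 in wild type alone. The same 11, 4 and 3 held for both marks in Sun-/-, wild type and both. With no window around the gene, H3K4me3 stood at 2 genes in Sun-/- alone, and with equal numbers of peaks at 1 in wild type alone. Requiring the marks to overlap, chosen after seeing the data, gave 9 genes in wild type and 5 in both. The median H3K4me3 ratio was -0.034 scaled to filtered tags, with 19 pairs above 0, 0.068 scaled to total tags and 0.34 as tags per peak, and the median H3K9me3 ratio was 0.67 as tags per peak; H3K9me3 pairs above 0 numbered 1 of 1 at 80% overlap and 5 of 6 at a minimum of 20 tags. H3K4me3 intervals above and below 0 numbered 4 and 3 scaled to filtered tags, against 1.79% and 29.4% of all pairs. As tags per peak they numbered 21 and 2, against 14.4% and 9.52% of all pairs. On that scale 1 H3K4me3 pair of the list passed 2-fold, as did 276 of all 17114. There 2 of the 3 H3K9me3 intervals lay above 0, against 17.1% of all H3K9me3 pairs. With at least 100 tags no H3K9me3 pair remained at these genes. The cause was not tested, apart from fewer peaks or pairs entering under the stricter settings. Small peaks set the limit: H3K9me3 counts rest on peaks of 12 to 109 tags.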
